A study of Mus musculus with 24 samples.

Results

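Neuropeptides are made as larger precursors, cut and often amidated along the regulated secretory pathway, stored in dense-core vesicles and released to act mostly at G protein-coupled receptors. In the striatum they are used by medium spiny neurons and by sparse interneurons, and they also reach it in axons whose cell bodies, and most of whose mRNA, lie elsewhere. The 8 genes described here encode the precursors of CART peptide (Cartpt), neurotensin (Nts), cholecystokinin (Cck), neurokinin B (Tac2), thyrotropin-releasing hormone (Trh), galanin (Gal), corticotropin-releasing hormone (Crh) and PACAP (Adcyap1). They were taken by symbol from a table of 24079 genes, and each matched 1 row. On GRCm38.p6 the genes lie at chr13:99898483-99910179 (Cartpt), chr10:102481756-102490418 (Nts), chr9:121489824-121495694 (Cck), chr10:127724478-127731768 (Tac2), chr6:92242061-92244650 (Trh), chr19:3409915-3414544 (Gal), chr3:19693401-19695396 (Crh) and chr17:93198245-93206541 (Adcyap1), and reads were counted over their exons.

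Stranded poly-A RNA-seq was made from 2 dissected regions, dorsal striatum (DS) and nucleus accumbens (Acb), of rpS6 knockin mice (rpS6P-/-), in which the phosphorylated serines of ribosomal protein S6 are replaced by alanine in every cell, and of their wild-type littermates. Both genotypes came from heterozygous crosses on a mixed C57Bl/6, Sv129 and ICR background, the ages are not given in the sources used here, and each library pooled tissue of several mice. From each lysate, cytosolic RNA of the whole lysate and RNA of heavy polysomal fractions of a sucrose gradient, which carries mRNAs loaded with several ribosomes, were sequenced separately. That gave 8 groups of 3 libraries, 24 in all, with no treatment in any group.

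Libraries held 9280589 to 34703044 assigned reads. Over the 24 libraries the mean number of reads per library was 1295 for Cck, 869 for Nts, 398 for Cartpt, 276 for Tac2, 164 for Crh, 117 for Trh, 96.7 for Adcyap1 and 94.8 for Gal. Gal had 0 reads in 8 libraries, all of DS, and Adcyap1 had 1 read in its lowest library. Levels are counts per 1000000 reads (CPM) scaled by TMM factors, and a gene was called where edgeR's quasi-likelihood F test gave a Benjamini-Hochberg adjusted p under 0.05 over all genes tested. The alanine replacements leave a read count as it is, so the counts do not check the genotype labels.

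The 250 bases upstream of the annotated start are shown for the 3 abundant genes that were higher in Acb (Nts, Cartpt and Tac2) and for Cck, which was lower there, since these 4 carry the regional result. They are from RefSeq promoters of GRCm38.p6, the build of the counts, and lie at chr10:102490419-102490668 on the minus strand for Nts, chr13:99900684-99900933 on the minus strand for Cartpt, chr10:127724228-127724477 on the plus strand for Tac2 and chr9:121495695-121495944 on the minus strand for Cck. Capitals mark each match to TGACG or its reverse complement CGTCA, the half-site of the cAMP response element.
Nts: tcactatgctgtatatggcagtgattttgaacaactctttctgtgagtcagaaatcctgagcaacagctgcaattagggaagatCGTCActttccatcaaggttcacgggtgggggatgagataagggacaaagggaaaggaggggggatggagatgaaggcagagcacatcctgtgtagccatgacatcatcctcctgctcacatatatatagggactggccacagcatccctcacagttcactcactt
Cartpt: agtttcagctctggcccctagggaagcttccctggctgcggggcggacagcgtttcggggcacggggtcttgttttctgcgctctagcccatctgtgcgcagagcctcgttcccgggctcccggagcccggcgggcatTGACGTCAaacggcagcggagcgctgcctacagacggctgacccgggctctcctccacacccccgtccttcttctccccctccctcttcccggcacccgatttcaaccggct
Tac2: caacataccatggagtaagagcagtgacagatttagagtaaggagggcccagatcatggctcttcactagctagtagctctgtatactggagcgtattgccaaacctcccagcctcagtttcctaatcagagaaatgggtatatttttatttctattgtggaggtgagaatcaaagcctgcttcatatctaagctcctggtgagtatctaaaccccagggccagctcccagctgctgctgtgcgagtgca
Cck: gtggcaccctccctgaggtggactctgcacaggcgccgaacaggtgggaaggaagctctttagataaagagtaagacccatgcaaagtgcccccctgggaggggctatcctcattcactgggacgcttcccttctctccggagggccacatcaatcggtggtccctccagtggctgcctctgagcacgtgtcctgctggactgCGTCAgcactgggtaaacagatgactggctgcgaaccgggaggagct
Promoters of 7 of the 8 genes were matched by symbol, each as 250 bases before and 50 after the start. Adcyap1 has 2 listed promoters, which makes 8 promoters. The half-site was found on either strand in 7 of these 8 promoters, that of Tac2 being the exception. It was found in 20.8% of all 32851 promoters. The 2 promoters of Adcyap1 overlap and share 1 half-site, so by gene the count was 6 of 7. The full palindrome TGACGTCA, which overlaps 2 half-site matches, was found in Cartpt, 112 to 105 bases before the start, and in 1.79% of all promoters. TATAAA was found in 1 of the 8, a promoter of Adcyap1, and in 13.6% of all promoters. Genes called higher and lower in Acb both held the half-site, and these letters are a description of sequence, not evidence that a factor binds.

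The first question was whether the 8 genes were higher in Acb than in DS. In wild-type whole lysates 5 of the 8 were called higher in Acb and 1 lower, where 12.7% of 15557 genes tested were called in either direction, 6.54% higher and 6.15% lower. The genes called higher were Nts, Cartpt, Tac2, Gal and Crh, and the gene called lower was Cck. In all 8 genes the 3 Acb libraries did not overlap the 3 DS libraries, as was so for 27.7% of all genes. The median log2 fold of the 8 was 2.12, with Gal at its fitted value or at its bound, against 0.01 for all genes. In bulk tissue, fewer cells of a type and less RNA per cell cannot be told apart in any of these comparisons.

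Nts, whose product modulates dopamine signalling, had the highest log2 fold in wild-type mice among the genes with reads in every library. In wild-type whole lysates it stood at 40.6, 64.2 and 41.4 CPM in Acb and at 4.02, 3.30 and 5.14 CPM in DS. The lowest Acb library was several times the highest DS library. The log2 fold was 3.59 ± 0.25 (SE, n = 3 per group), or 12-fold, with an adjusted p of 1.64e-14 by edgeR. In wild-type heavy polysomal fractions Nts stood at 84.3, 130 and 91.7 CPM in Acb and at 5.93, 4.03 and 7.89 CPM in DS, a log2 fold of 4.09 ± 0.26.

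Cartpt, whose CART peptides are linked to feeding and reward, stood at 26.7, 35.8 and 31.4 CPM in wild-type Acb lysates and at 4.89, 9.63 and 5.99 CPM in DS lysates. The groups were apart by a wide margin, and the log2 fold was 2.22 ± 0.27 (n = 3 per group, edgeR adjusted p = 2.95e-08). Tac2, whose product neurokinin B acts at the receptor encoded by Tacr3, stood at 12.3, 18.8 and 18.4 CPM in Acb lysates and at 1.47, 2.41 and 3.20 CPM in DS lysates. Its log2 fold was 2.84 ± 0.38 (edgeR adjusted p = 2.42e-07), so that both precursors were called higher in Acb.

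Gal, the galanin precursor, had no read in any of the 6 whole-lysate libraries of DS. In wild-type Acb lysates it stood at 1.96, 2.91 and 9.63 CPM, from 36, 36 and 80 reads, so 1 library was well above the others. At a floor of 3 reads per library, which stood at 0.163 to 0.253 CPM in the wild-type DS lysates and covers counting error only, Gal was at least 23.3-fold higher in Acb, and at least 11.7-fold without the highest Acb library. In knockin Acb lysates it had 64, 5 and 53 reads, and the bound was at least 19.8-fold, or 15.1-fold to 28.2-fold with a library left out. In heavy polysomal fractions Gal was seen in DS in 4 of 6 libraries, with 9, 12 and 0 reads in wild-type and 0, 20 and 14 reads in knockin mice, and at 10.0, 11.8 and 25.8 CPM in wild-type Acb. The log2 fold there was 5.06 ± 0.68, and it was 4.26 without the DS library that had 0 reads, 4.45 without the highest Acb library and 5.75 without DS replicate 2.

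Crh, best known as the hypothalamic hormone that starts the stress response, stood at 7.81, 11.7 and 10.9 CPM in wild-type Acb lysates and at 3.53, 2.41 and 1.60 CPM in DS lysates. These groups were apart, with a log2 fold of 2.02 ± 0.44 and an edgeR adjusted p of 8.94e-04. In wild-type heavy polysomal fractions the groups came close, at 13.6, 20.3 and 12.7 CPM in Acb and 11, 7.17 and 3.95 CPM in DS. The log2 fold there was 1.1 ± 0.34 and missed the threshold (edgeR adjusted p = 0.0584); without DS replicate 1, the highest DS library, it was 1.51 and passed (edgeR adjusted p = 0.0206).

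Trh, the precursor of thyrotropin-releasing hormone, stood at 6.28, 8.33 and 6.98 CPM in wild-type Acb lysates and at 5.76, 1.72 and 4.13 CPM in DS lysates. The lowest Acb and the highest DS library nearly met, and the log2 fold of 0.92 ± 0.47 did not pass (edgeR adjusted p = 0.233). In wild-type heavy polysomal fractions the regions were apart, at 6.71, 10.6 and 9.34 CPM in Acb and 1.92, 1.91 and 2.71 CPM in DS. The log2 fold there was 2.01 ± 0.39 (edgeR adjusted p = 0.00335).

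**Figure D1:**
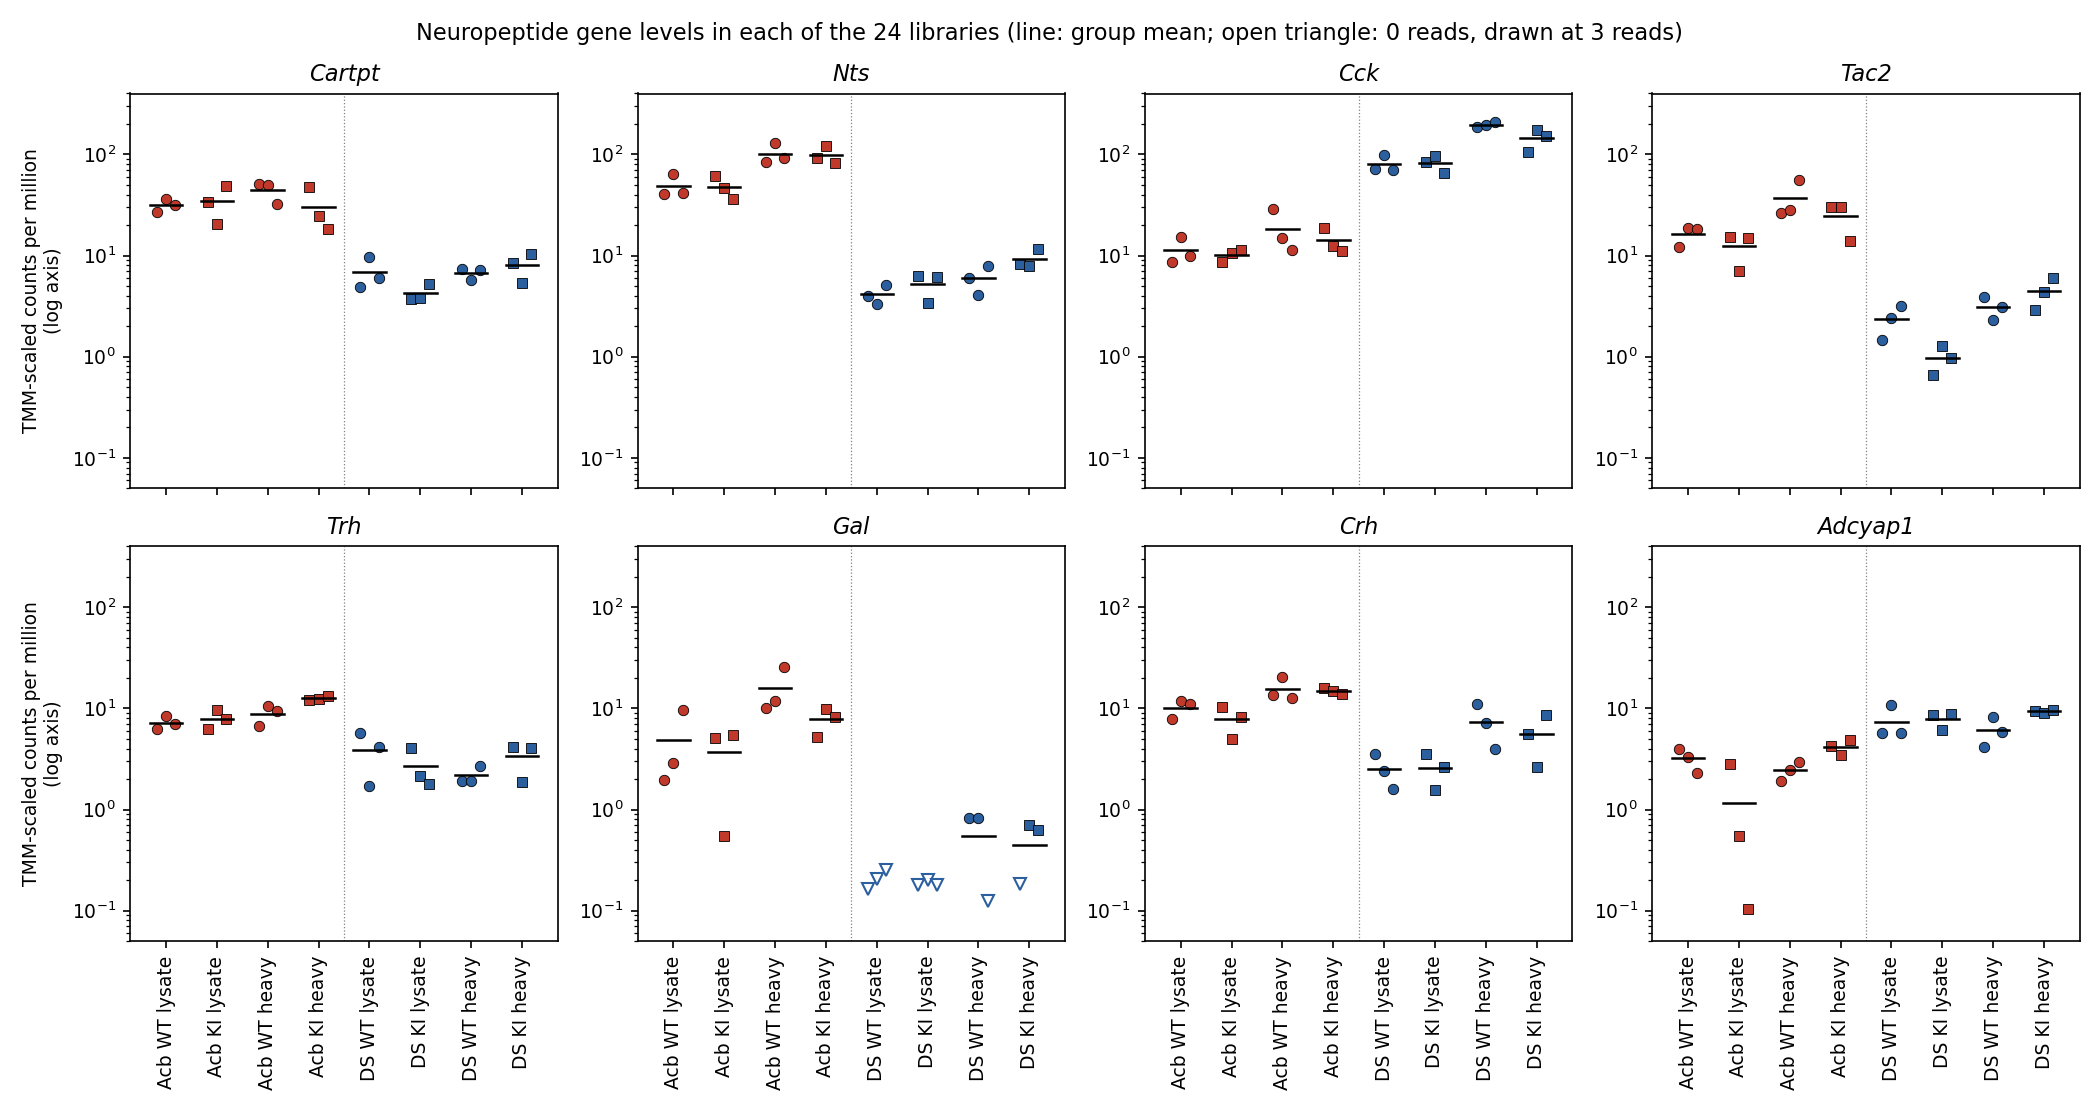
TMM-scaled CPM (log axis) of the 8 genes in each of the 24 libraries, in groups of 3 by region, genotype (WT, wild-type; KI, knockin) and kind of RNA, with group means as lines and libraries with 0 reads as open triangles at the level of 3 reads. Cck and Adcyap1 are higher in DS, the other 6 are higher in Acb, and Gal has 0 reads in all 6 DS lysates.

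Cck and Adcyap1 went the other way. Cck, whose precursor is made in quantity by cortical pyramidal neurons, stood at 8.68, 15.4 and 9.87 CPM in wild-type Acb lysates and at 71.6, 99.4 and 70.2 CPM in DS lysates. The lowest DS library was several times the highest Acb library. The log2 fold was −2.81 ± 0.21, or 6.99-fold lower in Acb (edgeR adjusted p = 5.43e-14). In wild-type heavy polysomal fractions it stood at 29.1, 14.8 and 11.3 CPM in Acb and at 189, 195 and 208 CPM in DS, a log2 fold of −3.40 ± 0.27. Of the 8 genes it was thus the most abundant in DS and only the fourth in Acb lysates per length.

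Adcyap1, the PACAP precursor, which cortical excitatory neurons also express, was scarce. In wild-type lysates it stood at 3.98, 3.32 and 2.29 CPM in Acb, from 73, 41 and 19 reads, and at 5.65, 10.7 and 5.65 CPM in DS. The regions did not overlap, but the log2 fold of −1.16 ± 0.47 did not pass (edgeR adjusted p = 0.112), nor did that of −1.30 ± 0.45 in wild-type heavy polysomal fractions (edgeR adjusted p = 0.0904, or 0.0468 at a log2 fold of −1.51 without DS replicate 1).

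Taken as a sum, the 10 markers of cortical excitatory neurons were higher in DS, as were these 2 genes. Within groups neither Cck nor Adcyap1 always rose with the markers. Their summed level was 120 to 201 CPM in wild-type Acb lysates and 861 to 1116 CPM in DS lysates, 6.53 times higher in DS by group means, and 8 of the 10 were called lower in Acb in each of the 4 comparisons of region. Slc17a7, the vesicular glutamate transporter of cortical neurons, stood at 78.5 ± 34.3 CPM in Acb and 537 ± 84.7 CPM in DS (SD, n = 3) in wild-type lysates. Emx1 was at 0 reads in at least 1 Acb lysate of each genotype. The part of cortical tissue in the regional difference of Cck and Adcyap1 was not tested.

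Septum, hypothalamus, choroid plexus and glial marker lists were also higher in Acb. In wild-type lysates the 6 septum markers summed to 56.9 to 75.3 CPM in Acb and 13.0 to 21.1 CPM in DS, and the 6 markers of hypothalamus and subpallial vesicular glutamate neurons to 37.6 to 40.1 CPM and 16.6 to 19.2 CPM. The choroid plexus list summed to 32.6 to 53.3 CPM in Acb and 11.1 to 20.5 CPM in DS, most of it Clic6. Of its defining markers, Ttr stood at 7.38 ± 5.46 CPM in Acb and 0.331 ± 0.515 CPM in DS, and Folr1 and Kcnj13 were at or near 0 in both. Astrocyte markers summed to 673 to 818 CPM against 381 to 423 CPM, microglia markers to 155 to 171 CPM against 86.2 to 103 CPM, oligodendrocyte markers to 3374 to 3916 CPM against 2637 to 3261 CPM, striatal interneuron markers to 136 to 160 CPM against 95.4 to 121 CPM, and endothelial markers to 3.85 to 16.3 CPM against 3.96 to 5.54 CPM. In heavy polysomal fractions the summed interneuron markers of Acb were 1.01 times those of DS in wild-type and 0.987 times in knockin mice, and the endothelial markers 0.795 and 0.948 times. The 9 medium spiny neuron markers summed to 2852 to 3054 CPM in Acb and 3827 to 4385 CPM in DS, and were thus abundant in both. Sim1 and Otp, which define hypothalamic neurons, stayed at or below 0.49 CPM in every group mean. The part of these cell types in the results for Nts, Cartpt, Tac2, Gal, Crh and Trh was not tested.

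**Figure D2:**
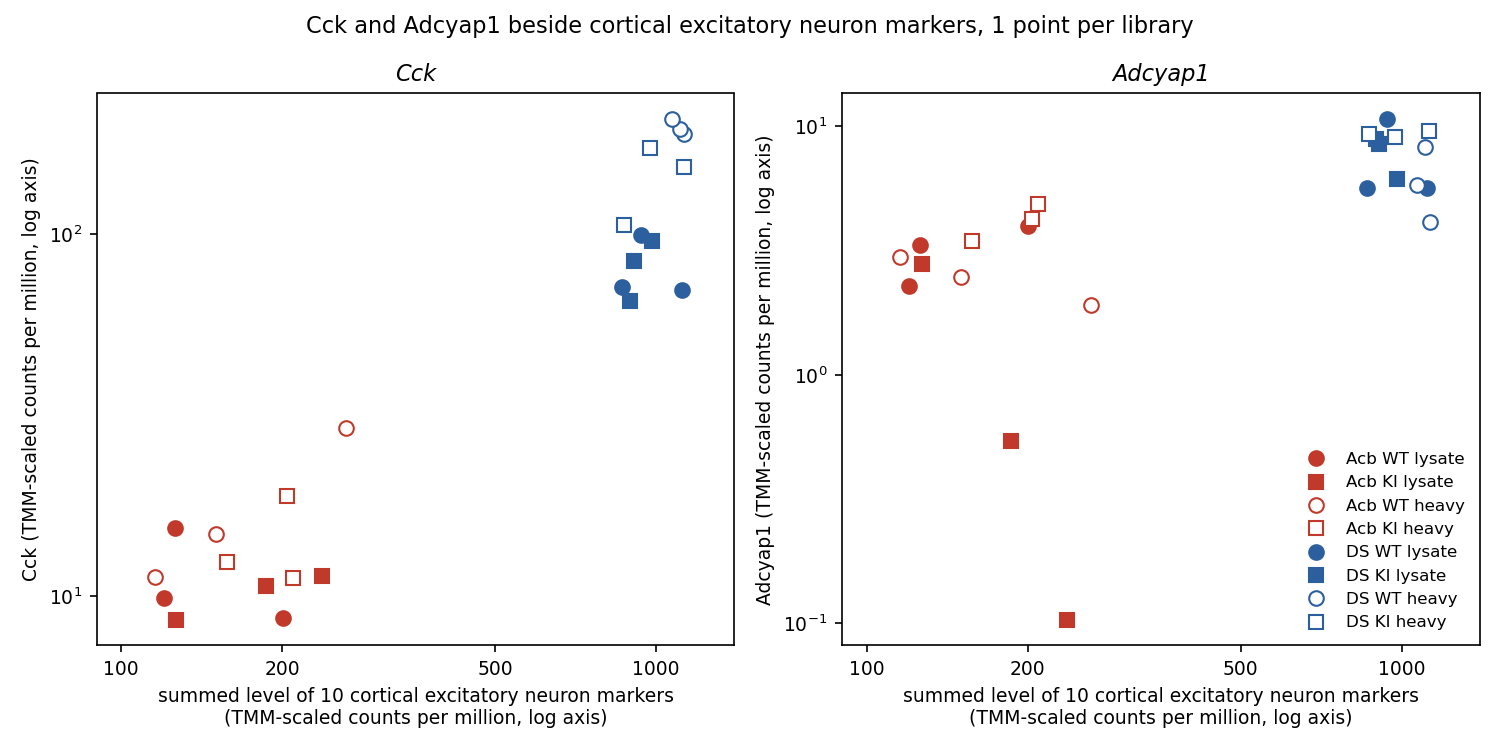
Cck (left) and Adcyap1 (right) against the summed level of 10 cortical excitatory neuron markers, all in TMM-scaled CPM on log axes, 1 point per library, with Acb in red, DS in blue, circles for wild-type (WT), squares for knockin (KI), filled for whole lysates and open for heavy fractions. The marker sum is 116 to 263 in the 12 Acb libraries and 861 to 1129 in the 12 DS libraries, and both genes are lower in Acb.

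The same comparison was then made in the other 3 sets of libraries. In wild-type heavy polysomal fractions 5 of the 8 genes were called higher in Acb and 1 lower (8.15% of all genes tested were called, 4.72% higher and 3.43% lower). In knockin whole lysates all 8 were called, 6 higher and 2 lower (10.9% of all genes, 4.84% higher and 6.03% lower). In knockin heavy polysomal fractions all 8 were again called, 6 higher and 2 lower (18.6% of all genes, 7.89% higher and 10.7% lower). The 2 regions did not overlap in any of the 8 genes in these 3 sets either, as was so for 27.0%, 26.5% and 36.4% of all genes. The median log2 fold of the 8 genes was 2.37, 2.33 and 1.93 in these sets, against 0.03, 0.00 and 0.01 for all genes.

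In knockin lysates Nts stood at 61.8, 46.0 and 36.5 CPM in Acb and at 6.29, 3.37 and 6.13 CPM in DS, and Cartpt at 34.1, 20.7 and 48.5 CPM and at 3.71, 3.85 and 5.23 CPM. Tac2 stood at 15.1, 7.04 and 14.8 CPM in Acb and at 0.659, 1.28 and 0.962 CPM in DS, the last from 11, 19 and 16 reads. Knockin Acb replicate 2 was thus the lowest of its group in Cartpt and Tac2, and it was also the lowest in Gal and Crh, while it was the highest in Trh. The log2 folds were 3.21 ± 0.27 for Nts, 3.04 ± 0.31 for Cartpt and 3.69 ± 0.51 for Tac2 in lysates, and 3.43 ± 0.22, 1.93 ± 0.31 and 2.49 ± 0.31 in heavy polysomal fractions. Cck was lower in Acb by a log2 fold of −2.98 ± 0.20 in knockin lysates and of −3.33 ± 0.23 in heavy polysomal fractions.

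In knockin lysates the scarcer genes passed close to the threshold. Trh passed there at a log2 fold of 1.57 ± 0.52 (edgeR adjusted p = 0.0427) and no longer passed when Acb or DS replicate 2 or 3 was left out, with adjusted p from 0.0824 to 0.177 and log2 folds of 1.36 to 1.58. With all libraries kept it also missed the threshold under the filterByExpr filter (edgeR adjusted p = 0.0518) and by limma-voom (adjusted p = 0.0520). Crh passed at 1.62 ± 0.53 (edgeR adjusted p = 0.0379) and was lost without any of 5 libraries, with adjusted p from 0.0523 to 0.202 and log2 folds of 1.37 to 1.93; only without Acb replicate 2 did it keep its call. Both genes were called in knockin heavy polysomal fractions, at log2 folds of 1.93 ± 0.33 and 1.44 ± 0.33.

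Adcyap1 was called lower in Acb in both knockin sets. In knockin lysates its 3 Acb libraries held 35, 5 and 1 reads, or 2.80, 0.542 and 0.103 CPM, and its DS libraries stood at 8.50, 6.14 and 8.89 CPM. The log2 fold of −2.69 ± 0.68 (edgeR adjusted p = 0.00524) became −4.55 without Acb replicate 1 and missed the threshold without DS replicate 1 (edgeR adjusted p = 0.0514). In knockin heavy polysomal fractions, where all libraries had at least 69 reads, it stood at 4.22, 3.47 and 4.88 CPM in Acb and at 9.34, 9.08 and 9.53 CPM in DS. The log2 fold there was −1.14 ± 0.30 (edgeR adjusted p = 0.0116; 0.0670 without Acb replicate 2, and 0.10 with all 24 libraries in one fit).

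**Figure D3:**
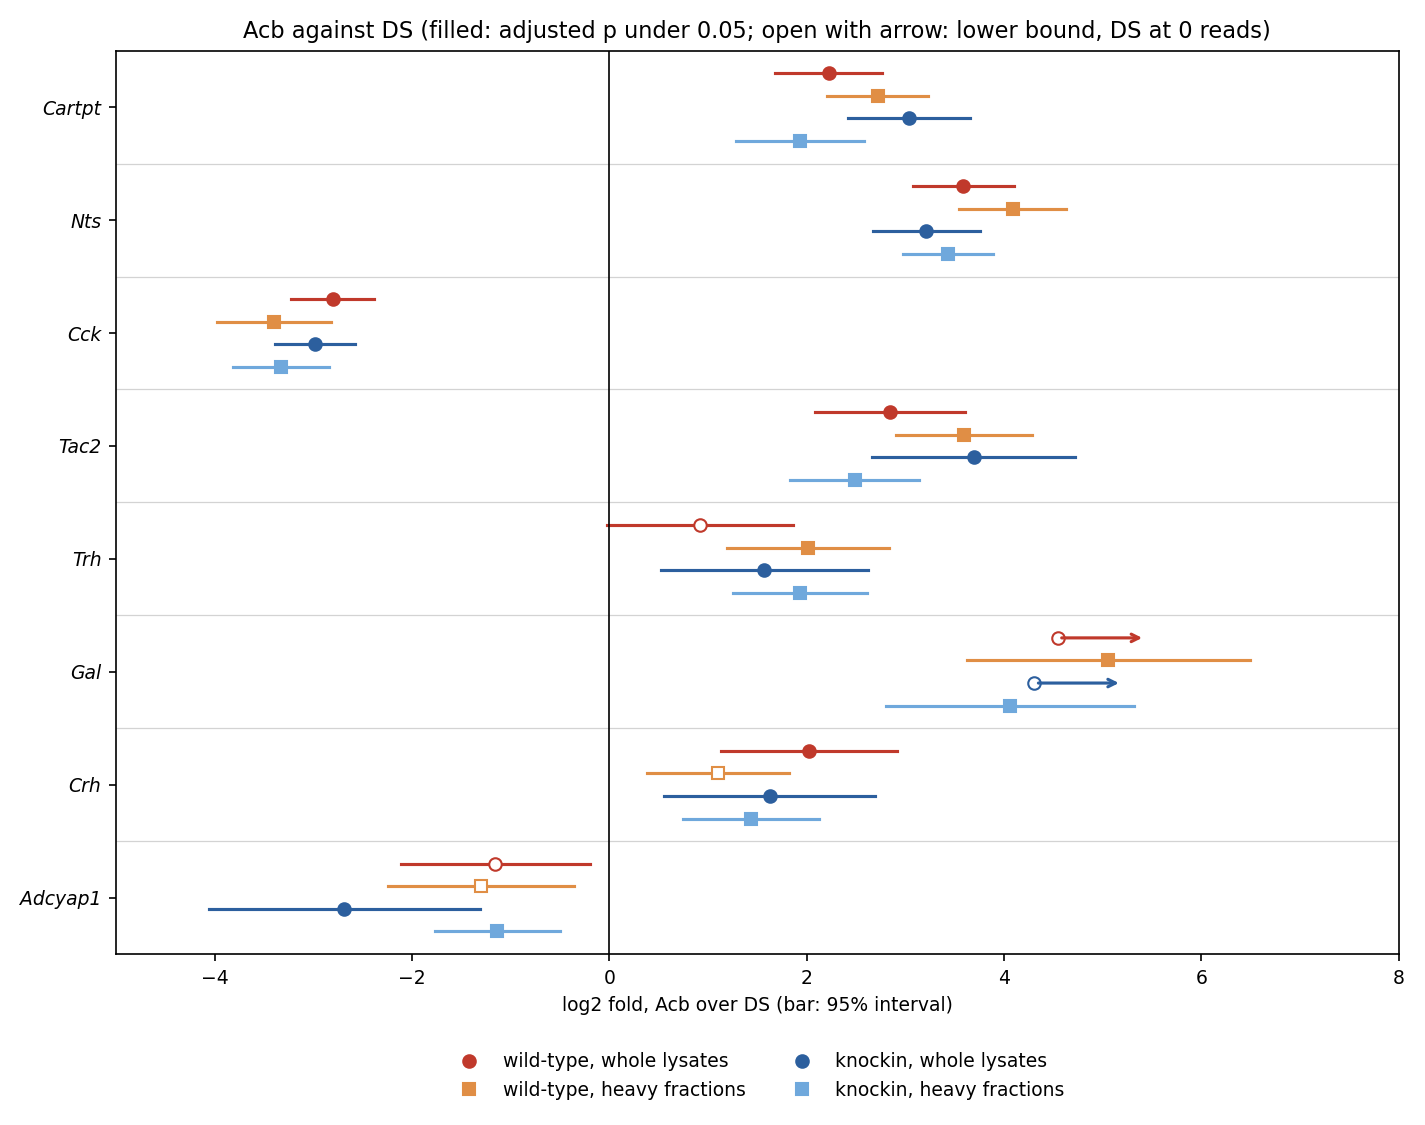
Log2 fold of Acb over DS for the 8 genes in the 4 sets of libraries, with 95% intervals (filled, adjusted p under 0.05; open, not under 0.05; open with an arrow, lower bound for Gal where DS had 0 reads). Nts, Cartpt, Tac2, Gal, Crh and Trh lie above 0 and Cck and Adcyap1 below it in all 4 sets.

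Per kilobase of transcript, the order of the 8 genes differed between the regions. In wild-type Acb lysates Nts (39.0 RPKM, reads per kilobase of transcript in CPM units) and Cartpt (37.9) came first, followed by Tac2 (19.3), Cck (14.1), Crh (7.70), Gal (7.19), Trh (5.20) and Adcyap1 (0.942). Nts and Cartpt overlapped, as did Tac2 and Cck, Crh and Gal, and Gal and Trh, whereas Tac2 lay below Cartpt, Crh below Cck and Adcyap1 below Trh with no overlap. In wild-type DS lysates Cck was at 101 and clear of Cartpt at 8.27, and Nts (3.33), Trh (2.80), Tac2 (2.77), Adcyap1 (2.17) and Crh (1.91) each overlapped the next, ahead of Gal at 0. Length came from 1 annotated transcript a gene, 672 bases for Gal and 3392 for Adcyap1; with coding length in its place, 5 of the 8 kept their rank in DS lysates and all 8 in Acb lysates.

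Of the 18 receptor genes for these peptides, 16 were tested in wild-type lysates, and 4 were called higher and 2 lower in Acb. Their median log2 fold was 0.76, against 0.01 for all genes. That median includes receptors that were not called, with standard errors of up to 2.24. Trhr, the receptor for thyrotropin-releasing hormone, stood at 14.7 ± 2.79 CPM in Acb and 2.62 ± 1.61 CPM in DS (SD, n = 3), a log2 fold of 2.50 ± 0.41. Tacr3, the receptor for neurokinin B, was higher in Acb by 1.66 ± 0.43, Adcyap1r1, a receptor for PACAP, by 1.19 ± 0.13, and Ntsr2, a neurotensin receptor, by 0.81 ± 0.18. Cckbr, the cholecystokinin receptor of brain, was lower by −0.90 ± 0.26 and Vipr1, a receptor shared by PACAP and VIP, by −1.03 ± 0.27. The other neurotensin receptors stood at −0.23 (Ntsr1) and −0.14 (Sort1) and were not called. Of 16 receptors in wild-type heavy polysomal fractions, 5 were called higher and 1 lower: Trhr (3.77 ± 0.45), Tacr3 (2.45 ± 0.33), Adcyap1r1 (1.25 ± 0.19), Ntsr2 (0.77 ± 0.19), Cckar, which had 0 reads in all 3 DS libraries and 13 to 72 in Acb, and Cckbr (−0.97 ± 0.25). In knockin mice 3 receptors were higher and 2 lower in lysates, and 6 were higher and 1 lower in heavy polysomal fractions, of 15 tested in each. Of all genes, 12.7% were called in wild-type lysates and 8.15% in wild-type heavy polysomal fractions. In knockin mice the shares were 10.9% in lysates and 18.6% in heavy polysomal fractions.

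Of 34 other neuropeptide genes, 21 were tested in wild-type lysates, and 6 were called higher and 1 lower in Acb. The precursors of the medium spiny neurons were higher: Pdyn by a log2 fold of 2.02 ± 0.14, Tac1 by 1.04 ± 0.12 and Penk by 0.86 ± 0.11. So were Oxt (4.48 ± 0.76, from 39 to 139 reads in Acb and 0 to 17 in DS), Pnoc (1.43 ± 0.36) and Sst (0.55 ± 0.15), while Vip, made by cortical interneurons, was lower by −1.70 ± 0.36. Npy, made with Sst by striatal interneurons, stood at 51.6 ± 7.43 CPM in Acb and 59.3 ± 2.01 CPM in DS and was not called. In the heavy polysomal fractions of wild-type mice 5 were higher (Oxt, Pdyn, Pnoc, Tac1 and Penk) and 3 lower (Vip, Cort and Grp) of 27 tested, and in knockin mice 7 higher and 1 lower of 22 in lysates and 5 higher and 2 lower of 26 in heavy polysomal fractions. Of 8 enzymes and chaperones that process peptides, 2 were higher and 1 lower in wild-type lysates. The shares of all genes called in these sets, 12.7% in wild-type lysates, are those given with the receptors. The log2 fold of Nts, 3.59, thus stood above that of Pdyn, 2.02, in the same libraries, and per length wild-type Acb lysates held Penk at 666, Tac1 at 217, Sst at 218, Pdyn at 101 and Npy at 91.3 RPKM, all above Nts at 39.0.

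The next question was whether the 8 mRNAs were enriched in heavy polysomal fractions over whole lysates of the same tissue. In wild-type Acb 3 of the 8 were called, all higher in heavy polysomal fractions (25.9% of all genes were called, 13.0% higher), namely Nts, Tac2 and Gal. Nts went from 40.6, 64.2 and 41.4 CPM in lysates to 84.3, 130 and 91.7 CPM, a log2 fold of 1.01 ± 0.19 (edgeR adjusted p = 2.09e-04). Each fraction was above the lysate of the same number. Tac2 went from 12.3, 18.8 and 18.4 CPM to 26.1, 28.4 and 56.4 CPM, a log2 fold of 1.12 ± 0.26 (edgeR adjusted p = 0.00154); without the highest fraction it was 0.68 and missed the threshold (edgeR adjusted p = 0.0586). Gal went from 1.96, 2.91 and 9.63 CPM to 10.0, 11.8 and 25.8 CPM, a log2 fold of 1.73 ± 0.43 (edgeR adjusted p = 0.00355), which was 2.66 without the highest lysate and missed the threshold without lysate replicate 1 (1.32, edgeR adjusted p = 0.0604) or with all 24 libraries in one fit (edgeR adjusted p = 0.0714).

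In knockin Acb 2 of the 8 were called, both higher (17.2% of all genes, 7.70% higher). Nts went from 61.8, 46.0 and 36.5 CPM to 92.9, 120 and 82.0 CPM, a log2 fold of 1.0 ± 0.20 (edgeR adjusted p = 8.55e-04). Tac2 went from 15.1, 7.04 and 14.8 CPM to 30.0, 30.0 and 13.9 CPM, a log2 fold of 0.96 ± 0.31 (edgeR adjusted p = 0.0309) that missed the threshold without any of 4 libraries, replicates 1 and 2 of either kind of RNA. A replicate block paired each fraction with the lysate of the same number. With it 4 genes were called, and the share of all genes called is not given for that fit. The 2 further were Crh (log2 fold 0.94, edgeR adjusted p = 0.0281) and Adcyap1 (2.45, edgeR adjusted p = 0.0234). Adcyap1 had 35, 5 and 1 reads in these lysates and 69, 133 and 100 in their heavy polysomal fractions.

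In wild-type DS 2 of the 8 were called, both higher (24.3% of all genes, 12.8% higher). Cck went from 71.6, 99.4 and 70.2 CPM to 189, 195 and 208 CPM, with no overlap and a log2 fold of 1.30 ± 0.16 (edgeR adjusted p = 7.54e-07). Crh went from 3.53, 2.41 and 1.60 CPM to 11, 7.17 and 3.95 CPM, a log2 fold of 1.53 ± 0.51 (edgeR adjusted p = 0.0246), and it missed the threshold without fraction replicate 1 or lysate replicate 2 or 3, with adjusted p from 0.0713 to 0.181. In knockin DS 2 of the 8 were called, both higher (28.6% of all genes, 13.8% higher). They were Cck, from 84.0, 95.4 and 65.3 CPM to 106, 173 and 153 CPM (log2 fold 0.78 ± 0.16, edgeR adjusted p = 7.83e-05), and Tac2, from 0.659, 1.28 and 0.962 CPM to 2.91, 4.35 and 6.02 CPM (2.15 ± 0.68, edgeR adjusted p = 0.0117; 1.86 and 0.116 without the highest fraction). Gal had no read in any DS lysate and a mean of 0.547 CPM in wild-type and 0.442 CPM in knockin fractions, at least 2.63-fold and 2.36-fold higher against the floor, and did not pass the test in either. Each genotype had 1 fraction with 0 reads as well, and without it the bounds were 3.95-fold and 3.54-fold. With all 24 libraries in one fit Gal was called in both (edgeR adjusted p = 0.00812 and 0.00632).

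The 8 genes encode short precursors, with coding sequences of 348 bases (Tac2) to 768 bases (Trh), and their enrichment was computed again with a trend of log2 fold on coding length removed over all genes. With it removed, Nts, Tac2 and Gal in wild-type Acb stood at 0.59, 0.77 and 1.35 and were still called, as were Nts (0.93) and Tac2 (1.12) in knockin Acb. Cck in wild-type DS stood at 0.84 in place of 1.3 and was still called, whereas Crh there was not (1.08, edgeR adjusted p = 0.149). In knockin DS neither gene was still called: Cck stood at 0.18 (edgeR adjusted p = 0.477) and Tac2 at 1.51 (edgeR adjusted p = 0.114). The median log2 fold of the 8 genes without that step was 0.61 in wild-type Acb, 0.93 in knockin Acb, 0.46 in wild-type DS and 0.83 in knockin DS, against medians of 0.00 to 0.03 for all genes. With the trend removed the medians of the 8 were 0.16, 0.84, −0.05 and 0.24 in the same order. The median was thus lower in each of the 4 sets, least so in knockin Acb. Medians of all genes after that step are not given here. The difference in enrichment between Acb and DS, as the interaction of kind of RNA and region, was called by edgeR for 0 of the 7 genes with reads in DS lysates in either genotype (0% of all genes in wild-type and 5.87% in knockin mice). At an unadjusted p under 0.05 it was 0 of the 7 in wild-type mice (4.60% of all genes) and 3 of the 7 in knockin mice (19.8% of all genes). Gal was left out of these counts, since its DS lysates were at 0. In knockin mice Cartpt was called without heavy fraction replicate 1 of Acb (log2 difference −1.55, edgeR adjusted p = 0.0149) and Adcyap1 without lysate replicate 1 of Acb (3.48, edgeR adjusted p = 0.00356).

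**Figure D4:**
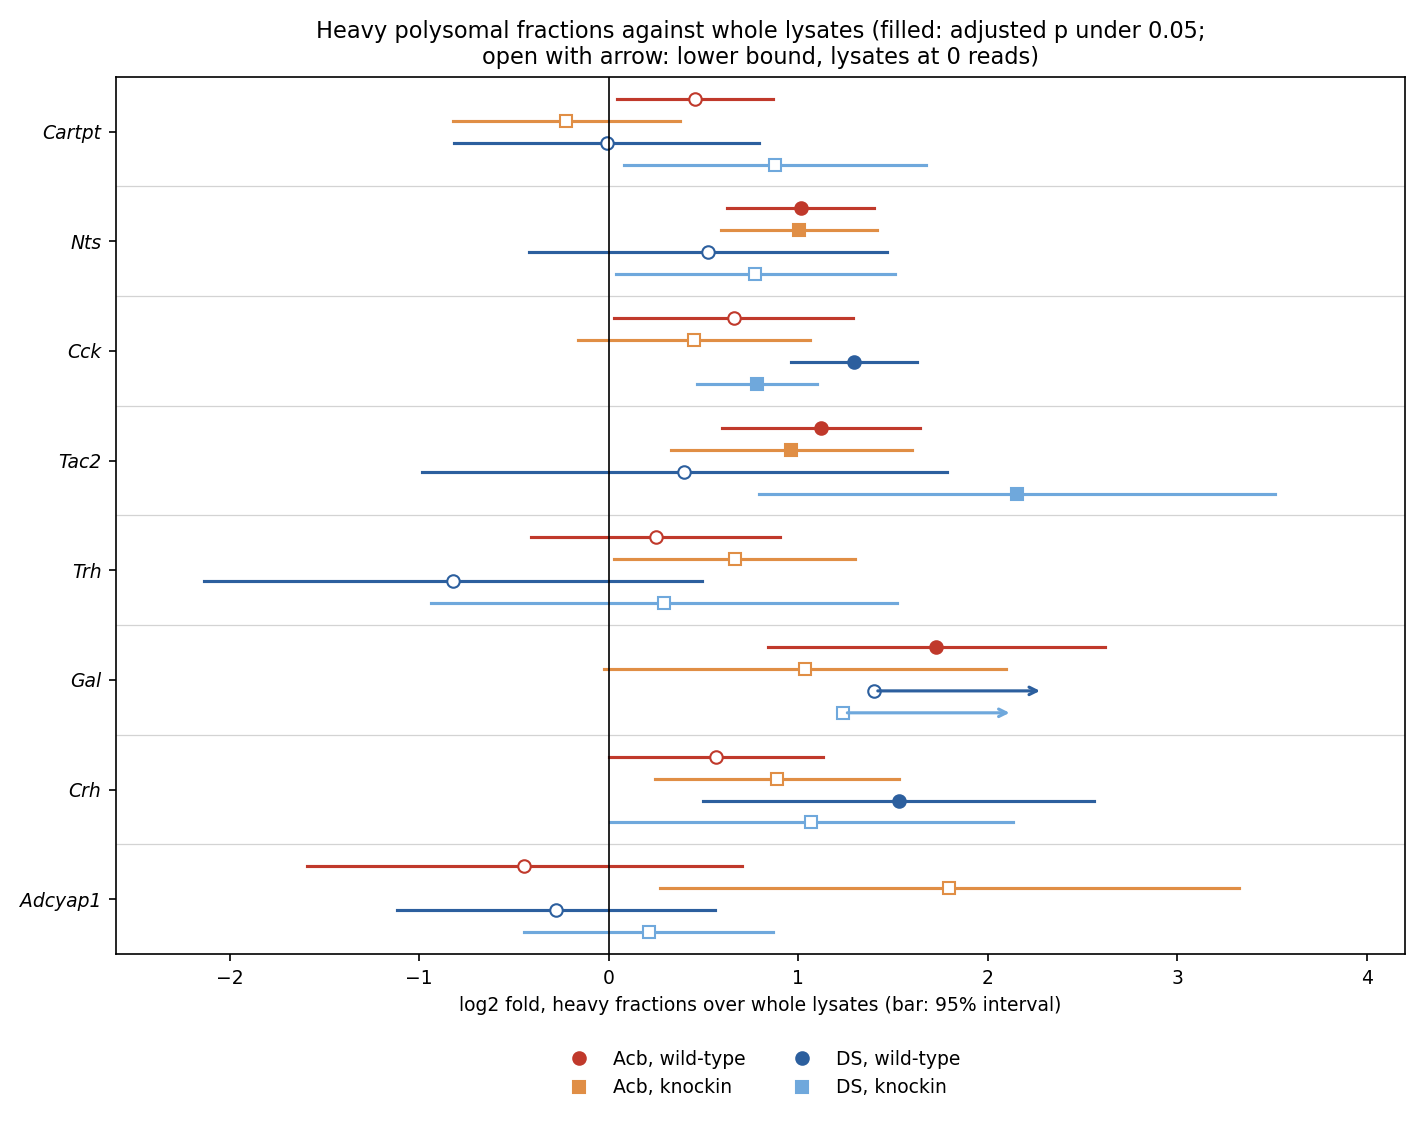
Log2 fold of heavy polysomal fractions over whole lysates for the 8 genes in the 4 sets of tissue, with 95% intervals (filled, adjusted p under 0.05; open, not under 0.05; open with an arrow, lower bound for Gal where lysates had 0 reads). The 9 called values lie between 0.78 and 2.15.

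The last question was whether the 8 genes differed between knockin and wild-type mice. By edgeR none was called in Acb lysates (0.00650% of all genes), Acb heavy polysomal fractions (0% of all genes), DS lysates (0.122% of all genes) or DS heavy polysomal fractions (0.0440% of all genes). At an unadjusted p under 0.05 the counts were 0, 3, 0 and 1 of the genes tested, which were 8, 8, 7 and 8, since Gal had no reads in DS lysates. Of all genes, 2.96%, 21.7%, 9.07% and 6.42% had an unadjusted p under 0.05 in these comparisons. DESeq2 and limma-voom called 0 of them in each of the 4 comparisons. The share of all genes called by these methods is not given here, so their counts are not read as a result about these genes. In Acb heavy polysomal fractions edgeR called no gene at all, so its count there says nothing of these genes in particular. The paper reports many mRNAs that differ between genotypes in those fractions by DESeq2.

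The intervals bound the differences unequally. Nts was the most tightly bounded in Acb, with a log2 fold of −0.02 (95% interval −0.42 to 0.38) in lysates and −0.02 (−0.42 to 0.38) in heavy polysomal fractions, and Cck in DS lysates, at 0.00 (−0.29 to 0.29). The 3 genes with an unadjusted p under 0.05 in Acb heavy polysomal fractions were Gal at −0.98 ± 0.32 (10.0, 11.8 and 25.8 CPM in wild-type, 5.20, 9.89 and 8.20 CPM in knockin; edgeR adjusted p = 0.127), Adcyap1 at 0.81 ± 0.35 (1.91, 2.47 and 2.97 CPM against 4.22, 3.47 and 4.88 CPM; edgeR adjusted p = 0.194) and Trh at 0.55 ± 0.23 (6.71, 10.6 and 9.34 CPM against 12.2, 12.3 and 13.4 CPM; edgeR adjusted p = 0.178). The genotypes did not overlap in any of these 3, which were picked by p in the same libraries. The share of all genes without overlap between genotypes is not given here, so this is no result about these 3. In DS heavy polysomal fractions Cck stood at 189, 195 and 208 CPM in wild-type and 106, 173 and 153 CPM in knockin mice, a log2 fold of −0.45 ± 0.18 (edgeR adjusted p = 0.725). Adcyap1 in Acb lysates, at 3.98, 3.32 and 2.29 CPM in wild-type and 2.80, 0.542 and 0.103 CPM in knockin mice, had the widest interval of the Acb lysates, −3.51 to 0.61.

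Translational efficiency, tested as heavy over lysate in knockin against wild-type mice, was called as different by edgeR for 0 of the 8 genes in Acb and for 0 of 7 in DS, where Gal was left out since its lysates were at 0 (0% of all genes in both). At an unadjusted p under 0.05 it was 1 gene in each, where 11.9% of all genes in Acb and 4.90% in DS were. These were Adcyap1 in Acb (log2 difference 2.25 ± 0.95, edgeR adjusted p = 0.345) and Cck in DS (−0.48 ± 0.23, edgeR adjusted p = 1.0). The value of Adcyap1 rested on knockin lysates of 35, 5 and 1 reads, and it was 4.13 without the lysate of 35 reads and 1.73 without that of 1 read. The effect of the knockin was called as different between Acb and DS by edgeR for 0 of 7 genes in lysates, Gal again left out (0.00611% of all genes), and for 0 of 8 in heavy polysomal fractions (0.00592% of all genes). At an unadjusted p under 0.05 it was 1 gene in each, against 5.11% and 13.8% of all genes. These were Cartpt in lysates (0.83 ± 0.40, edgeR adjusted p = 0.953) and Tac2 in heavy polysomal fractions (−1.08 ± 0.47, edgeR adjusted p = 0.295).

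**Figure D5:**
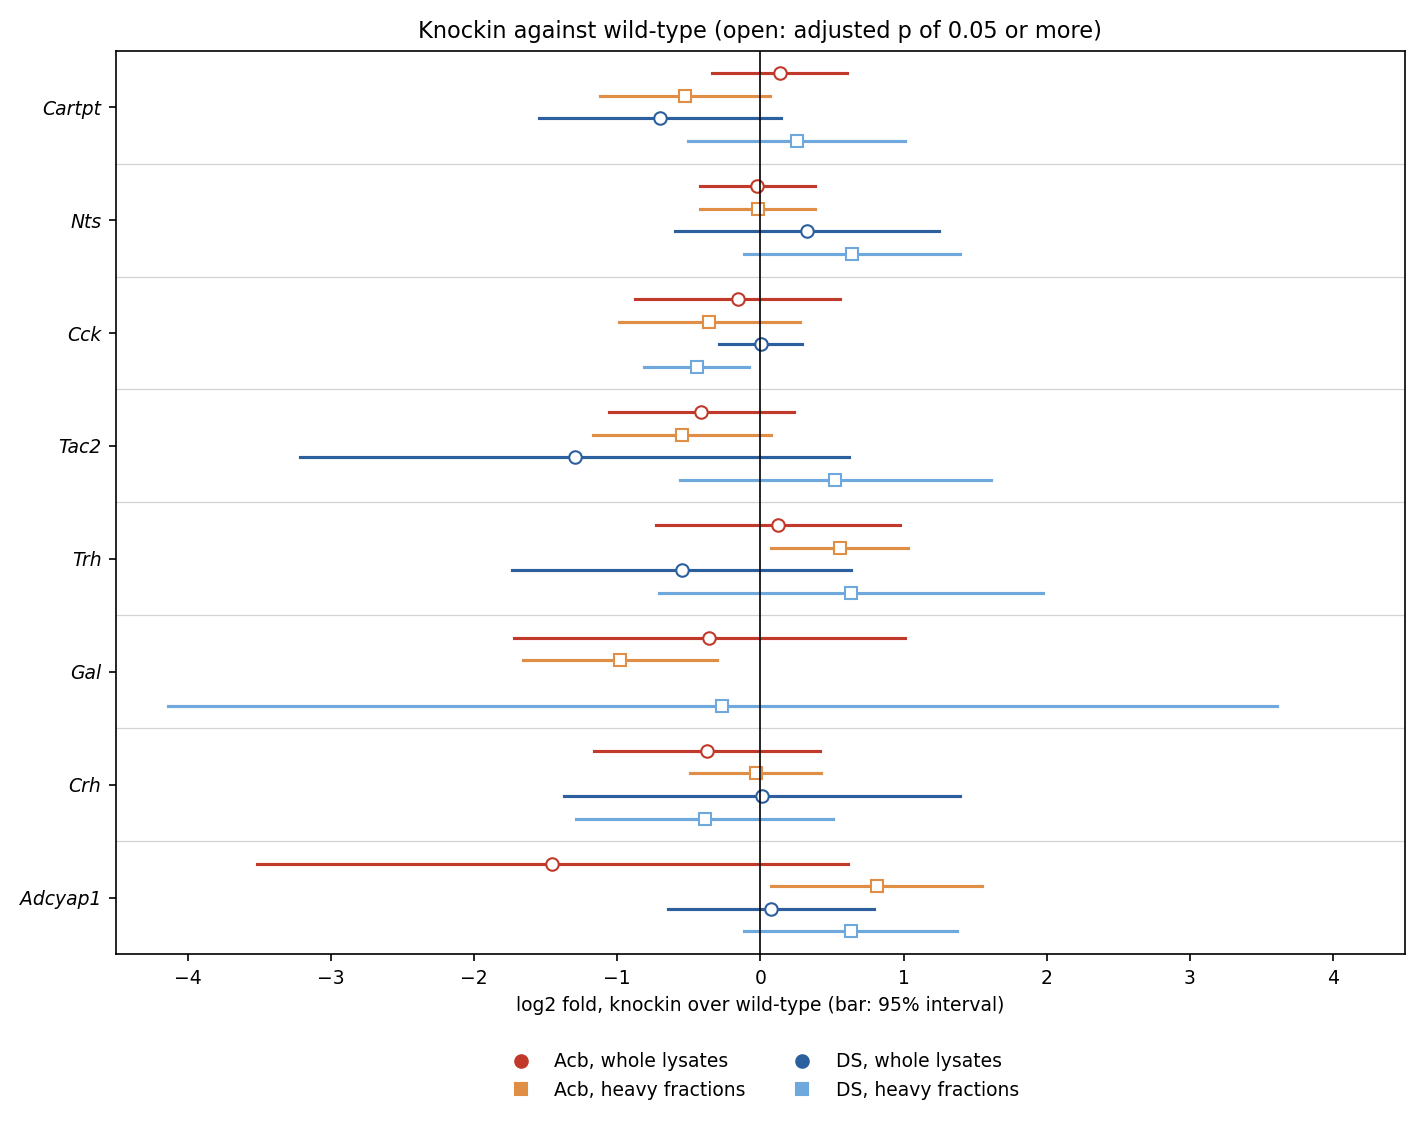
Log2 fold of knockin over wild-type mice for the 8 genes in the 4 sets of libraries, with 95% intervals (all open, adjusted p not under 0.05; Gal in DS lysates had 0 reads and is not drawn). Intervals are narrow for Nts in Acb and Cck in DS lysates and wide for Gal in DS fractions and Adcyap1 in Acb lysates.

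The genes most like each of the 8 in log2 level over the 24 libraries were sought among those with a mean of at least 50 reads. Picked by that likeness, they follow the split between regions largely by selection, which is no result about them. As a description with no test, over libraries that share region and kind of RNA, Pearson's r was 0.968 between Nts and Cpne2 and 0.955 between Nts and Pdyn, 0.926 between Cartpt and Tac2, 0.953 between Tac2 and Chn2 and 0.938 between Tac2 and Gal. It was 0.949 between Gal and Tmem255a, 0.910 between Trh and Shisa9, 0.902 between Crh and Hpcal1, 0.979 between Cck and Kctd17 and 0.872 between Adcyap1 and Galnt14. Between members it was −0.862 for Nts and Cck and 0.933 for Nts and Tac2.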

How the data were processed

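The authors sequenced the libraries single-end on stranded poly-A kits and, per the submitters' processing notes, used CASAVA 1.8.2, FastQC, TopHat2 2.0.13, Bowtie2 2.2.3 and HTSeq 0.6.1p1 on mm10; they deposited raw read counts per gene. From these counts, edgeR 4.0.16 (R 4.3.3) with TMM factors and quasi-likelihood F tests was fitted to the groups compared, over genes with at least 15 reads summed over their libraries, with Benjamini-Hochberg adjustment over all genes tested. RPKM used GENCODE M21 transcripts. Fits were tested on simulated data. Alternatives were DESeq2 1.42.0 and limma 3.58.1 (voom), other filters and scalings, all 24 libraries in one fit, a replicate block, a loess on coding length (span 0.5) and leaving out each library.

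By the paper's methods, input RNA and heavy polysomal fractions were taken from the same lysates. Libraries of one number were read as such pairs, which the labels do not state. Deviations from group means correlated at r from −0.0376 to 0.0743 over 12 such pairs. The main tests left this pairing out, and a replicate block was an alternative. Libraries pooled several mice, and p-values measure the spread between pools. The 8 genes and all lists were chosen with earlier results of these data known. All 8 genes, receptors and other neuropeptide genes past the threshold in wild-type regions, 6 further peptide genes as levels and the 3 most alike genes of each, and defining markers at or near 0 were eligible to be named; Slc17a7, Ttr and Clic6 were named after their values were seen.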

Additional observations from a re-analysis of the deposited data

How the results depend on the processing

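The counts of the 8 genes called between Acb and DS stayed within 1.5 times of those reported in all 28 fits under other settings and in all 24 fits without a library. With 6 or 8 of 8 genes called, these counts could not rise past that margin. Gene by gene, 3 calls were lost and 4 gained under other settings, and 11 were lost and 2 gained without a library. No called direction was reversed in any comparison. Counts between heavy polysomal fractions and lysates moved more. In knockin Acb 4 genes in place of 2 were called with no filter, with a replicate block, and with the coding length trend removed and a replicate block together, and 1 to 3 when a library was left out. In wild-type DS 1 in place of 2 was called by limma-voom, with the coding length trend removed, and with that and the block, and 1 to 2 when a library was left out. In knockin DS 6 in place of 2 were called with all 24 libraries in one fit, 0 with the length trend removed, with or without the block, and 1 to 3 when a library was left out. With no filter, 1 gene in place of 0 was called between genotypes in Acb heavy polysomal fractions (Gal, log2 fold −0.98, edgeR adjusted p = 0.0482), and 1 in place of 0 for the regional difference in enrichment in knockin mice, which ranged from 0 to 1 when a library was left out. That gene was Gal with no filter, and Gal, Cartpt or Adcyap1 with a library left out; the calls of Gal, whose DS lysates were at 0, carry no fold. The share of all genes called under each other setting, or without a library, is not given here. These changes in counts are therefore not read as a result about the 8 genes, and the cause of the changes in calls was not tested. Across regions and genotypes the replicate numbers are only numbers (2 of 12 pairs of genotype and 1 of 12 of region correlated over 0.1); with the block, Crh between regions in wild-type heavy polysomal fractions was called at a log2 fold of 1.17 (edgeR adjusted p = 0.0025). Depth limits Gal and Adcyap1 most, with under 100 reads a library on average. The bounds of Gal without each library were added after seeing the data.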
